A study of Mus musculus with 4 samples.

Results

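The accessibility of 10 target genes of the ERK and Wnt signalling pathways was examined in mouse embryonic stem (mES) cells by ATAC-seq, an assay in which a transposase inserts sequencing adapters into open chromatin. The 10 genes were 6 targets of ERK signalling (Dusp6, Spry2, Spry4, Etv4, Etv5 and Egr1) and 4 targets of Wnt signalling (Axin2, Lef1, Tcf7 and Sp5), out of 21887 protein-coding genes on chromosomes 1 to 19, X and Y. They were chosen by name. Each gene was given the peaks that overlapped its body or the 20 kb on either side of it, in the coordinates of GRCm38. There were 4 libraries: 2 of wild-type (wt) cells and 2 of Hox-/- cells, a genotype that the title of the study describes as lacking all Hox function. All 4 libraries came from cells in the same medium, DMEM with 10% serum, 100 ng/ml leukaemia inhibitory factor, 3 µM of CHIR99021, which inhibits the kinase GSK-3, and 1 µM of PD0325901, which inhibits MEK1/2. Each library was made from 50k cells, with 12 cycles of PCR. The labels do not say whether the Hox-/- cells are 1 clone, nor whether the replicates are separate cultures, so that any p-value here measures only the spread between these libraries.

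ERK is the last kinase of a cascade that runs from fibroblast growth factor receptors through RAS, RAF and MEK. Among its best known target genes are immediate early genes, ETS factors and the feedback inhibitors of the cascade itself. In the Wnt pathway, β-catenin is marked for destruction by a complex that includes AXIN, APC and GSK-3, and when it escapes it binds TCF and LEF factors on DNA. In mouse embryonic stem cells ERK signalling promotes the exit from pluripotency. Inhibition of MEK together with inhibition of GSK-3, as in this medium, holds the cells in a naive state with low ERK signalling and stabilised β-catenin. Both pathways were therefore under a drug in every library, and cells without the drugs were not analysed here.

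The lists of peaks gave 213705 and 216795 peaks in the wt libraries (replicates 1 and 2) and 191704 and 200214 in the Hox-/- libraries. Strength was read as the rank of a peak within its own library by the −log10 p of the peak caller, where rank 1 is the strongest, or as that rank in percent of the list. Peaks with a rank of 50000 or better are called strong. The lists hold no read counts, so that the depth is unknown. A relative measure of it, from the background of the peaks, was 0.640 of that of wt replicate 1 in Hox-/- replicate 1, and 0.941 to 1 in the others. As a check of the label, 5 of 6 stem cell markers had a strong peak within 1 kb of a start in all 4 libraries. The same held for 1 of 5 fibroblast markers, 0 of 4 endoderm markers and 47.9% of protein-coding genes. The check is a weak one. Among genes with a start peak in every library, the stem cell markers had a median rank of 64.7%. By the strongest peak within 20 kb of the gene, the fibroblast markers Thy1 (24.7%) and Col1a1 (38.5%) ranked better than Sox2 (48.3%) and Klf4 (60.2%). The list medians on that measure were 32.9% for stem cell, 58.2% for fibroblast and 82.5% for endoderm markers.

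Some promoters of the 10 genes are shown here, from RefSeq (GRCm38.p6), in which 7 of the 10 genes had an entry (all but Etv4, Spry4 and Egr1). Each run has the 250 bases before a start and the first 20 bases from it, 5′ to 3′ on the strand of the gene. Dusp6 (chr10:99262981-99263250, plus strand), Etv5 (chr16:22439551-22439820, minus strand) and Axin2 (chr11:108920099-108920368, plus strand) are shown because a strong peak had its summit within this run in every library. In these runs the capitals mark the span over which the summits of that peak lay in the 4 libraries.
Dusp6: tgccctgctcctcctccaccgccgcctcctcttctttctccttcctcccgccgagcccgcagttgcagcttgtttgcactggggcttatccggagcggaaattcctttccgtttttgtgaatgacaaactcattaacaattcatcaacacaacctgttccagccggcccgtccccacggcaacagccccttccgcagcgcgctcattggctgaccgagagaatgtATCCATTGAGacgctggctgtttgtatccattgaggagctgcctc
Etv5: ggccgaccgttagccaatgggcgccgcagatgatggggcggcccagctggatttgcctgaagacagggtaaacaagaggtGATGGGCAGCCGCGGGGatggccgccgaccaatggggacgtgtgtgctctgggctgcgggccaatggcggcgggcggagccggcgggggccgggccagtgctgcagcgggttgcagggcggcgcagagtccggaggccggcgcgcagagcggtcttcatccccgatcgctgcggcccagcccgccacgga
Axin2: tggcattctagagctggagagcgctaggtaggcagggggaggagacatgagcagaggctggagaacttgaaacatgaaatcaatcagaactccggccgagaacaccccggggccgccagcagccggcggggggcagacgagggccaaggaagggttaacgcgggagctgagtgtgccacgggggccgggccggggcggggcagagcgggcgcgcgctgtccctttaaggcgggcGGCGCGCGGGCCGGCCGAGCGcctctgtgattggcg
The span was 10 bases long at Dusp6, 17 at Etv5 and 21 at Axin2. At Dusp6 the same 10 letters occur again from the start base onward.

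Sp5 (chr2:70474673-70474942, plus strand) and the most downstream start of Lef1 (chr3:131156044-131156313, plus strand) are shown because they were the windows of the 10 genes that held the letters TCAAAG, the core of sites bound by TCF and LEF. Here the capitals mark those letters, which read CTTTGA where they lie on the other strand.
Sp5: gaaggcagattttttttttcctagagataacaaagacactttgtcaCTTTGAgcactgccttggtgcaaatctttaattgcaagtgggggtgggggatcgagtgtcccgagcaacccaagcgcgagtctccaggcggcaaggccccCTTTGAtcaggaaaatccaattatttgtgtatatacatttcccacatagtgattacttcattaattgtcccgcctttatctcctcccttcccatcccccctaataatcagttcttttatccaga
Lef1: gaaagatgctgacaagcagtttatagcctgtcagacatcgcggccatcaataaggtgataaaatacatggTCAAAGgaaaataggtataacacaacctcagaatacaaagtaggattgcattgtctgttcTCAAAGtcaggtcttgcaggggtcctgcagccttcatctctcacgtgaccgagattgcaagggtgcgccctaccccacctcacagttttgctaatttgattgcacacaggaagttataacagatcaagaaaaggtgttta
Each of these windows held 2 copies, which did not overlap. They began at -204 and -104 from the start of Sp5, on the minus strand, and at -180 and -120 from that start of Lef1, on the plus strand. Of 32851 RefSeq promoter windows of 300 bases, 16.0% held TCAAAG on either strand and 1.73% held at least 2 copies. The letters CCGGAAG, a core of ETS sites, were found in 1 window of Tcf7 (8.86% of all windows). The CArG box, bound by serum response factor, was found in 1 window of Tcf7 and 1 of Lef1 (1.63% of all windows). The windows of Dusp6, Spry2, Etv5 and Axin2 held none of these letters. Such a match is a description of the letters and not of a bound site. The GC content of these windows of 300 bases did not divide the ERK from the Wnt targets: it was 57.3% at Dusp6, 62.7% at Spry2, 60% and 74% at Etv5, 70% at Axin2, 64.3% and 76.3% at Tcf7 and 45% at Sp5. The 4 windows of Lef1 ran from 43.7% to 67.3%.

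All 10 genes had a strong peak in their window in all 4 libraries, as had 77% of protein-coding genes. They differed in where it lay. All 6 ERK targets had a strong peak within 1 kb of a start in all 4 libraries (for Etv4, Spry4 and Egr1, whose strand was not in the tables used, within 1 kb of an end of the gene). Of the 4 Wnt targets only Axin2 did, against 47.9% of protein-coding genes. At Lef1, Tcf7 and Sp5 the strongest peak lay kilobases away from the starts.

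**Figure D1:**
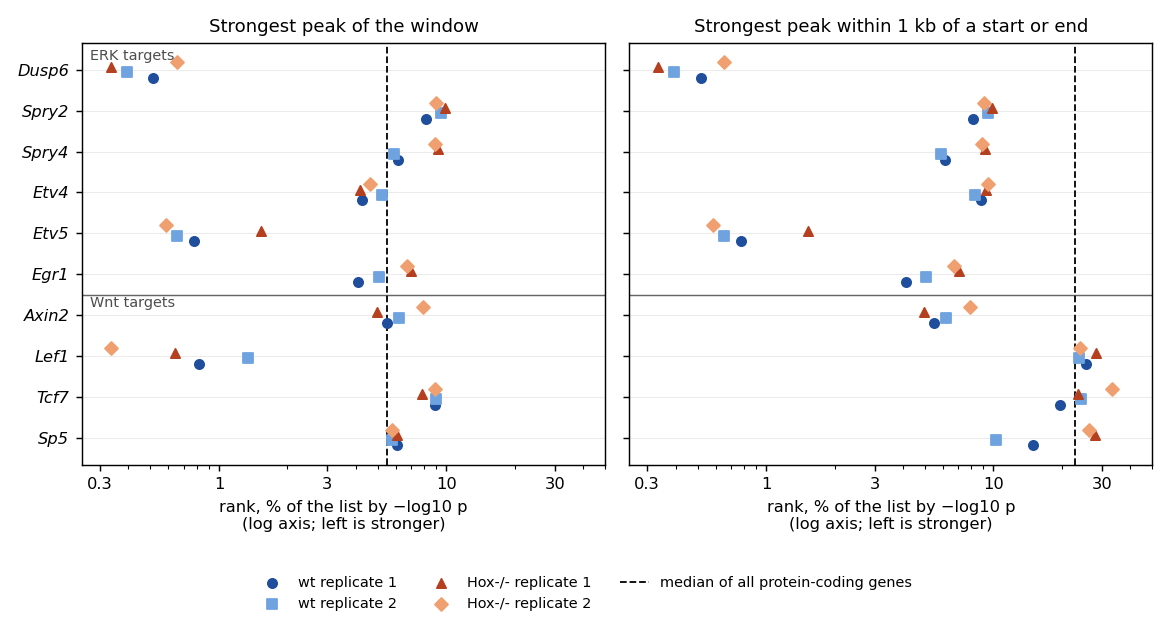
Rank of the strongest peak of the window (left) and of the strongest peak within 1 kb of a start or gene end (right), in percent of the list of each library, on a log axis. Each point is 1 library, and the dashed line is the median of all protein-coding genes (5.50% and 22.9%, mean of 4 libraries). In the right panel the 6 ERK targets and Axin2 lie left of 10%, and Lef1, Tcf7 and Sp5 lie between 10.3% and 33.1%.

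Dusp6 encodes a phosphatase that removes the activating phosphates from ERK. Its start peak was the strongest of any member in 3 of the 4 libraries, at ranks 1101 and 854 in wt and 642 and 1304 in Hox-/- cells. Its fold over the local background was 13.9 and 15.2 in wt and 14.4 and 13.3 in Hox-/- cells. The genotypes overlapped in both measures. The Dusp6 window was poor in strong peaks. In wt cells the start peak was the only strong one, and each Hox-/- library had 1 more, in the gene body.

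Etv5 encodes an ETS factor of the PEA3 group. The peak on its outer start had ranks 1661 and 1411 in wt and 2925 and 1175 in Hox-/- cells, so that Hox-/- replicate 1 stood below the other libraries. The window of Etv5 was the richest of the ERK targets, with 33 to 39 peaks and 10 to 14 strong ones. Of its 9 regions that were strong in all 4 libraries, 8 lay in the gene body.

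Etv4, another ETS factor of the same group, had its strongest peak inside the gene (chr11:101772058-101773128), 2.85 kb from the end with the lower coordinate. The ranks were 9103 and 11343 in wt and 7965 and 9259 in Hox-/- cells. A peak at the other end had ranks 18798 and 17964 in wt and 17743 and 18874 in Hox-/- cells. It also lies at an end of the neighbouring gene Gm39392, so that it cannot be assigned to 1 of the 2 genes. Neither peak separated the genotypes.

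Spry2 and Spry4 encode Sprouty proteins, which damp signalling from receptor tyrosine kinases. Spry2 had its strongest peak just upstream of its start, with the summit at -552 in 3 libraries and at -558 in Hox-/- replicate 2. The ranks were 17381 and 20589 in wt and 18830 and 18099 in Hox-/- cells. By mean rank this was the weakest of the start peaks that were strong in every library. At Spry4, on chromosome 18, the strongest peak lay at the end with the higher coordinate, which is also an end of Arhgap26. It ranked 13139 and 12726 in wt and 17666 and 17867 in Hox-/- cells. Here both Hox-/- libraries lay below both wt libraries.

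Egr1, on chromosome 18, is an immediate early gene for a zinc finger factor. Its strongest peak, at the end with the lower coordinate, ranked 8776 and 10994 in wt and 13468 and 13439 in Hox-/- cells, again without overlap of the genotypes. Egr1 had the highest density of strong peaks of the 10 genes, 1.49 ± 0.132 per 10 kb of window (SD over 4 libraries). Its window held 7 strong peaks per wt library and 6 per Hox-/- library. Not all of these can be assigned to Egr1. A region that was strong in 4 libraries (chr18:34850094-34850477) lies at an end of the neighbouring gene Gm41689. Another that was strong in 3 libraries (chr18:34840176-34841834) lies at ends of Kdm3b and Reep2.

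Axin2 encodes a scaffold of the complex that destroys β-catenin and so is a feedback inhibitor of the Wnt pathway. It stood with the ERK targets: its strongest peak lay on its start, with ranks 11708 and 13400 in wt and 9477 and 15803 in Hox-/- cells. The 2 Hox-/- values lay on either side of the wt values. Axin2 also had the densest window of the Wnt targets, with 3.56 ± 0.336 peaks per 10 kb (SD over 4 libraries).

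Lef1 encodes a DNA-binding partner of β-catenin. Its strongest peak lay upstream of its first start (chr3:131102113-131102785, centre 7.85 kb from it), at ranks 1742 and 2907 in wt and 1231 and 668 in Hox-/- cells. In Hox-/- replicate 2 it was stronger than the start peak of Dusp6. The best peak at any of the 4 starts of Lef1 in the promoter table ranked 54464 and 51657 in wt and 54295 and 48064 in Hox-/- cells. This was outside the strong peaks in 3 libraries and just inside them in Hox-/- replicate 2. In 3 libraries that peak lay at the start at 131112791, and in Hox-/- replicate 2 it lay 292 bp after the start whose sequence, with 2 copies of TCAAAG, is printed above.

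Tcf7 encodes TCF1, another factor of that family. Regions upstream of the outer start at -3551 (chr11:52286203-52286928) and -14556 bp (chr11:52297214-52297927) were about equally strong in wt cells, with ranks 19096 and 19444 for the nearer and 19124 and 20137 for the farther. In Hox-/- cells the nearer had ranks 20682 and 19254, and the farther 14937 and 17794. The start itself ranked 41794 and 52356 in wt and 45094 and 66314 in Hox-/- cells, so that only 1 library of each genotype listed it among the strong peaks.

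Sp5 encodes a zinc finger factor that is a direct Wnt target. Its strongest peak lay downstream of the gene (chr2:70484510-70485294, centre 9.98 kb from the start), with ranks 12937 and 12480 in wt and 11598 and 11492 in Hox-/- cells. By fold over the local background this peak was higher than the start peak of Dusp6 in every library: 16.8 and 17.2 in wt and 18.6 and 18.2 in Hox-/- cells. The start of Sp5, whose 2 TCAAAG copies are printed above, ranked 31766 and 22235 in wt and 53651 and 52458 in Hox-/- cells. Both wt libraries listed it among their strong peaks, and the Hox-/- libraries did not.

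**Figure D2:**
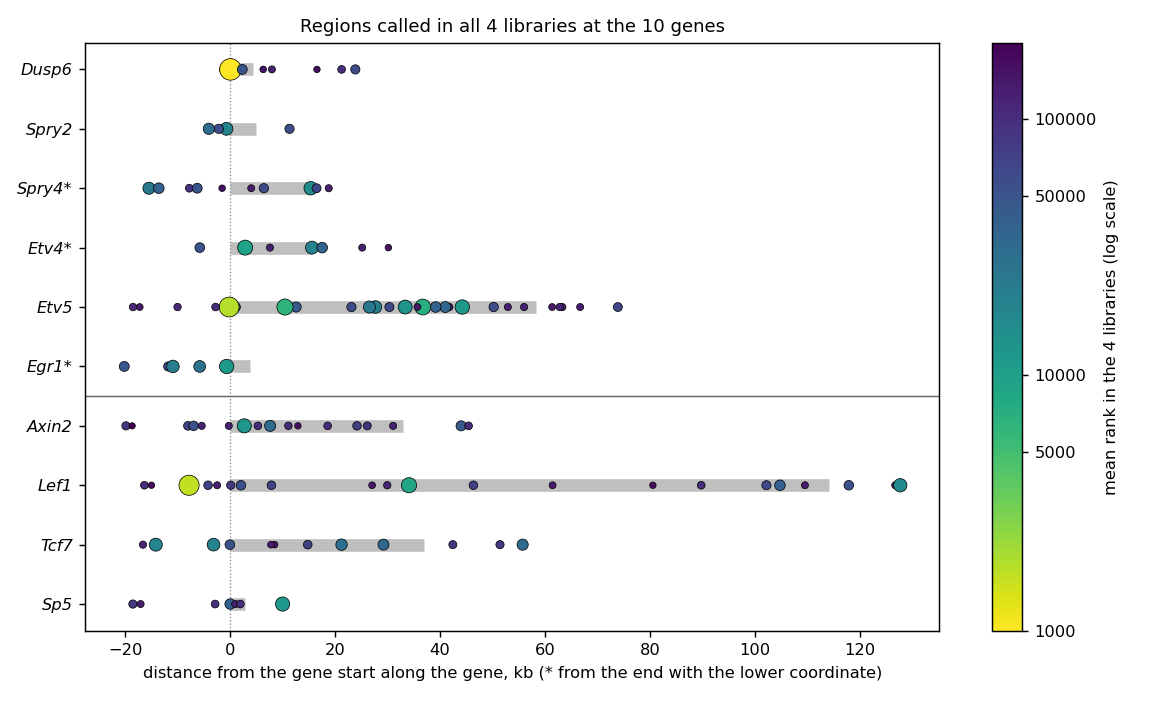
Regions called in all 4 libraries at each gene, by the distance of their centre from the outer end of the gene at its 5′ side in kb (for genes with *, from the end with the lower coordinate); grey bars are gene bodies. Larger and lighter points have better mean ranks, on a log scale. The strongest points of Dusp6 and Etv5 lie at 0, while those of Lef1, Tcf7 and Sp5 lie away from it; Axin2 has its listed start inside the gene body.

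Within each library the median over the 6 ERK targets was set against the median over the 4 Wnt targets. The genes are not replicates of each other, so that these differences are descriptions, with the SD over the 4 libraries as their error and no p-value. For the strongest peak at a start, the ERK median was 6.63% of the list and the Wnt median 21.3%. The difference was -14.6 ± 3.26 percentage points (SD, n = 4 libraries), with a range of -17.6 to -11.6. The median of all protein-coding genes was 22.9% on this measure, in which a gene without a start peak counts as 100% and 69.4% of genes had one. Among the genes with a start peak in every library, the median ERK target stood at 40.4% of the gene ranking and the median Wnt target at 72.3%. In no library did an ERK target have a weaker start peak than every Wnt target. The separation was incomplete all the same, since Axin2 (4.94% to 7.89%) lay within the range of the ERK targets (0.335% to 9.82%). With the 3 ERK targets of unknown strand left out, the difference was -20.4 points. With both ends of every gene counted as starts it was -26.5 points. Both of these settings were added after the data were seen.

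For the strongest peak anywhere in the window the lists were closer. The ERK median was 5.15% and the Wnt median 6.01%, a difference of -0.864 ± 0.711 points (SD, n = 4 libraries), and its sign was not the same in all libraries (-1.58 to 0.0934). With 50 kb on either side of the genes the difference was -4.14 ± 0.754 points. The median of all protein-coding genes was 5.50%. Genes within a list were farther apart than the lists: the mean over libraries ran from 0.474% (Dusp6) to 9.12% (Spry2) among ERK targets and from 0.783% (Lef1) to 8.65% (Tcf7) among Wnt targets.

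This order depends on the measure of strength. Ranked by fold over the local background instead of −log10 p, the strongest peak of the window was better at the Wnt targets in all 4 libraries, with a difference of 9.50 ± 1.19 points (SD). Sp5 then had ranks of 1.23% to 2.42%, Lef1 of 1.91% to 3.70% and Tcf7 of 4.30% to 6.45%, while Axin2, at 13.6% to 20.7%, lay among the ERK targets (4.23% to 30.2%). At the starts the sign did not change, with a difference of -9.23 points by fold.

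Per length of window, the ERK targets had a median of 2.57 peaks per 10 kb and the Wnt targets 2.32, a difference of 0.252 ± 0.0675 (SD, n = 4 libraries). Both were above the median of protein-coding genes, 1.47. The windows are of unequal length, from 42.8 kb at Sp5 to 154 kb at Lef1, and without Lef1 the difference was 0.109. With 10 kb in place of 20 kb on either side of the genes it was 1.01. Strong peaks stood at 0.776 per 10 kb at the ERK targets and 0.472 at the Wnt targets, a difference of 0.304 with a range of 0.208 to 0.445 over the 4 libraries, against 0.366 for protein-coding genes. Its size depends on the settings: it was 0.642 with 10 kb on either side, 0.132 with the 25000 strongest peaks and 0.152 ± 0.189 with the 100000 strongest. Ranked by fold it was -0.0538. The share of the window covered by peaks was 9.65% at the ERK targets and 9.57% at the Wnt targets, which differed by less than the spread between libraries (0.0810 ± 0.440 points).

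**Figure D3:**
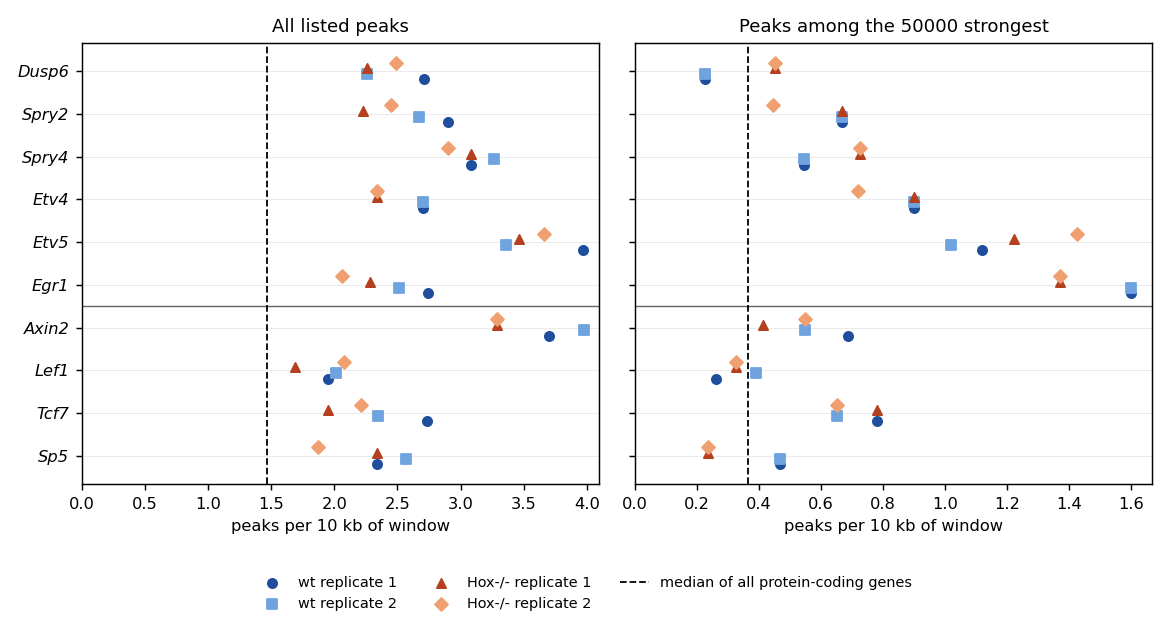
Listed peaks (left) and peaks among the 50000 strongest of a library (right) per 10 kb of window. Each point is 1 library, and the dashed line is the median of all protein-coding genes (1.47 and 0.366). All 40 points of the left panel lie to the right of the line; in the right panel Egr1 and Etv5 lie farthest right, and Dusp6, Lef1 and Sp5 have libraries on its left.

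The comparison of the genotypes rests on 2 libraries against 2, for which an exact permutation test cannot give a p below 0.33. The 6 ERK windows held 108 and 99 peaks in wt and 94 and 96 in Hox-/- cells, a difference of -8.5 (two-sided exact permutation p = 0.33). The 4 Wnt windows held 88 and 89 in wt and 75 and 81 in Hox-/- cells, a difference of -10.5 (two-sided exact permutation p = 0.33). Both Hox-/- libraries were below both wt libraries in each list of genes. The whole lists were shorter in Hox-/- cells too: their ratio of Hox-/- to wt was 0.910, against 0.918 at the ERK targets and 0.881 at the Wnt targets. Hox-/- replicate 1, with the lowest relative depth, had the fewest peaks in both. Without wt replicate 1 the difference at the ERK targets was -4, and without wt replicate 2 it was -13.

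Among the 50000 strongest peaks of each library, which makes the lists equally long, the 10 windows held 47 and 46 in wt and 47 and 47 in Hox-/- cells (difference 0.5, two-sided exact permutation p = 1). The ERK windows held 30 and 29 strong peaks in wt and 32 and 32 in Hox-/- cells, and the Wnt windows 17 and 17 in wt and 15 and 15 in Hox-/- cells (two-sided exact permutation p = 0.33 for each). Etv5, with 11 and 10 strong peaks in wt and 12 and 14 in Hox-/- cells, had a mean difference of 2.5, as large as that of the 6 ERK targets together (2.5), so that the differences at the other 5 summed to 0. The sign of the total is not stable, since it was -2.5 with the 25000 strongest peaks and -7.5 with the 100000 strongest.

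Peaks of the 4 libraries that overlapped were merged into regions, of which 177 of 208211 lay in the 10 windows (91 at ERK targets, 86 at Wnt targets). Of these, 118 (66.7%) were called in all 4 libraries, against 59.0% of all regions. The regions called in all libraries were ranked anew among themselves, so that each library had a list of 1 length. In both Hox-/- libraries 23 member regions ranked better than in both wt libraries, 12 at ERK and 11 at Wnt targets. That is 19.5% of the 118, against 20.5% of all such regions. In the other direction there were 28, 12 at ERK and 16 at Wnt targets, or 23.7% against 20.3% of all such regions. Ranked by fold instead, the counts were 30 higher and 23 lower of the 118, against 21.3% and 18.9% of all such regions. The shares at the members by −log10 p were near those of the genome, with the highest at the Wnt targets in the downward direction (28.1%).

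By gene, the counts are to be read against those 20.5% higher and 20.3% lower. Among the ERK targets, Dusp6 had 2 higher and 1 lower of 8 common regions, Spry2 had 0 and 1 of 4, Spry4 had 1 and 3 of 10, and Etv4 had 0 and 2 of 7. Etv5 had 8 and 2 of 27, and Egr1 had 1 and 3 of 5. Among the Wnt targets, Axin2 had 3 higher and 7 lower of 17, Lef1 had 5 and 3 of 21, Tcf7 had 1 and 3 of 12, and Sp5 had 2 and 3 of 7. More regions were higher than lower at Dusp6, Etv5 and Lef1, and more were lower at the other genes, from small numbers per gene.

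**Figure D4:**
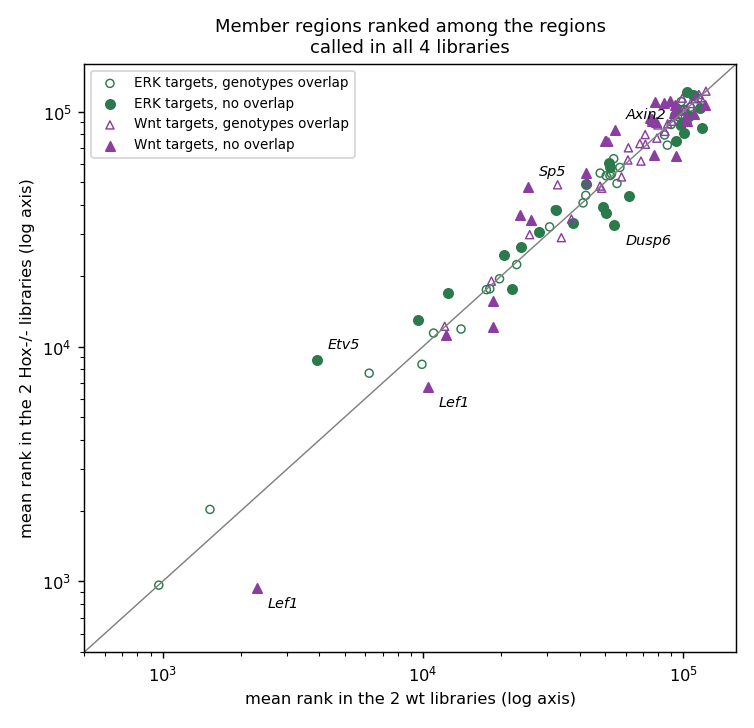
Mean rank of the 118 member regions in the 2 wt libraries and the 2 Hox-/- libraries, among the regions called in all 4, on log axes; points below the line rank better in Hox-/- cells. Filled points are the 51 regions whose genotypes do not overlap, and the names mark the 3 largest rank ratios in each direction. Most points lie close to the line, and the Lef1 upstream region and the Etv5 gene body region lie farthest from it at the strong end.

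The 3 largest changes in each direction among regions without overlap are given as the log2 ratio of the mean ranks, Hox-/- over wt, in which a negative value means a stronger peak in Hox-/- cells. The largest was the upstream region of Lef1 described above, with a ratio of -1.29. Of all regions called in the 4 libraries, 0.101% had a ratio that low. Its folds over background overlapped between the genotypes, at 15.2 and 14.0 in wt and 15.1 and 17.0 in Hox-/- cells. A second Lef1 region, in the gene body (chr3:131144089-131144655), ranked 8273 and 13366 in wt and 6413 and 7316 in Hox-/- cells, with a ratio of -0.64 (1.73% of all regions as low) and folds of 15.4 and 13.6 in wt and 15.7 and 15.7 in Hox-/- cells. In the body of Dusp6 (chr10:99265298-99265764) the ranks were 59931 and 61775 in wt and 43273 and 28162 in Hox-/- cells, a ratio of -0.72 (1.06% as low), and the folds were 3.59 and 3.65 in wt and 4.05 and 4.99 in Hox-/- cells.

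In the other direction, a region in the body of Etv5 (chr16:22428524-22429749), 9.23 kb after the nearer of its 2 starts, ranked 3575 and 4397 in wt and 9512 and 8442 in Hox-/- cells. Its ratio was 1.16, and 0.111% of all regions had a ratio as high. Its fold over background was 11.8 and 11.3 in wt and 8.60 and 9.13 in Hox-/- cells, without overlap. The start of Sp5 (chr2:70474340-70475466) came next, with a ratio of 0.92 (0.406% of all regions as high) and folds of 5.87 and 7.04 in wt and 4.79 and 5.11 in Hox-/- cells. Upstream of Axin2 (chr11:108897530-108898387) the ranks were 62474 and 59564 in wt and 119481 and 81820 in Hox-/- cells, a ratio of 0.62 (2.31% as high), and the folds 6.24 and 6.74 in wt and 4.12 and 5.25 in Hox-/- cells. Of the 6 regions, only the upstream one of Lef1 overlapped between the genotypes by fold. The regions were picked for their size, and no p-value was computed for them. The shares given are over regions of every rank, and none was taken among regions of like strength.

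Regions of Sp5 differed in opposite directions: its start ranked lower in both Hox-/- libraries and the downstream region ranked higher in both, though by little (ratio -0.13). At Lef1 the strongest start region had a ratio of 0.01, unlike the upstream region.

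Few regions were listed by both replicates of 1 genotype but by no library of the other. At the members 5 were listed in wt only, or 2.82% against 3.83% of all regions, and 0 in Hox-/- only, against 1.23%. The 5 lay at Dusp6 (chr10:99243926-99244396), Spry2 (chr14:105893018-105893285), Etv5 (chr16:22440892-22441222), Axin2 (chr11:108949285-108949691) and Tcf7 (chr11:52294096-52294597). All were weak, with ranks from 134767 to 215306. Hox-/- replicate 1 had the lowest relative depth (0.640), and its part in these absences was not tested.

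Ranked by their strongest window peak among the 19223 protein-coding genes with a peak in all 4 libraries, 3 of the 4 Wnt targets (Lef1, Tcf7 and Sp5) had better ranks in both Hox-/- libraries, and 0 of the 6 ERK targets. The same was true of 19.8% of those genes. Worse ranks in both Hox-/- libraries were found for 2 of the 6 ERK targets (Spry4 and Egr1) and 0 of the Wnt targets, against 20.1%. These counts are small, and the difference between the lists was not tested. Egr1 tied with another gene in every library, so that its strongest peak was shared with another window. The counts also depend on the measure of strength. Ranked by fold in percent of each list, Lef1 and Tcf7 overlapped between the genotypes, and Sp5 was still better in both Hox-/- libraries. Spry4 was still worse. The strongest peak by fold was not always the one by −log10 p. At Lef1 it was the gene body or downstream region and not the upstream one. At Egr1 it was the region at an end of Gm41689, below the gene. It stood at 16.3% and 17.2% in wt and 9.85% and 15.4% in Hox-/- cells, so better in both. The peak at the end of Egr1 was worse in both by fold too, at 16.8% and 19.7% in wt and 22.8% and 22.2% in Hox-/- cells. The other members, Dusp6, Spry2, Etv4, Etv5 and Axin2, overlapped by fold.

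Other genes of the pathways were taken from lists of 78 genes in all, the members and markers included. Their counts are to be read against the same 19.8% better and 20.1% worse of protein-coding genes. Of 13 components of the ERK cascade, from Fgf4 to Mapk3, 2 were better and 2 worse in both Hox-/- libraries on the same measure. Of 14 other feedback and immediate early genes of ERK, 2 were better and 5 (35.7%) worse. Of 17 Wnt pathway components, 3 were better and 2 worse, and of 9 other Wnt targets 2 were better and 4 (44.4%) worse. No difference from the other genes was tested. As a level, the strongest window peak of the ERK components had a median of 31.1% of the gene ranking and that of the Wnt components 35.5%, both stronger than that of the ERK targets (54.5%) and the Wnt targets (59.4%).

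In the ERK cascade the strongest windows were those of the adaptor genes Shc1 (5.32%) and Grb2 (5.59%), and the weakest those of the receptor gene Fgfr2 (81.4%) and the ERK1 gene Mapk3 (71.8%). The best peak of Shc1 is shared with the neighbouring gene Pygo2, a Wnt pathway component. Grb2 and Ier2 also tied with another gene in every library. Of the other ERK targets Ier3 (12.3%) and Ier2 (17.3%) were strongest and Dusp4 (83.7%) and Egr3 (76.8%) weakest. Of the Wnt components, Axin1 (0.977%) and Gsk3b (4.89%), both of the destruction complex, were strongest, and the receptor genes Fzd2 (88.4%) and Fzd1 (81.3%) weakest. Of the other Wnt targets, Notum (10.8%), which encodes an enzyme that inactivates Wnt proteins, and the receptor gene Lgr5 (21.3%) were strongest, and the inhibitor genes Nkd2 (79.1%) and Nkd1 (79.0%) weakest.

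**Figure D5:**
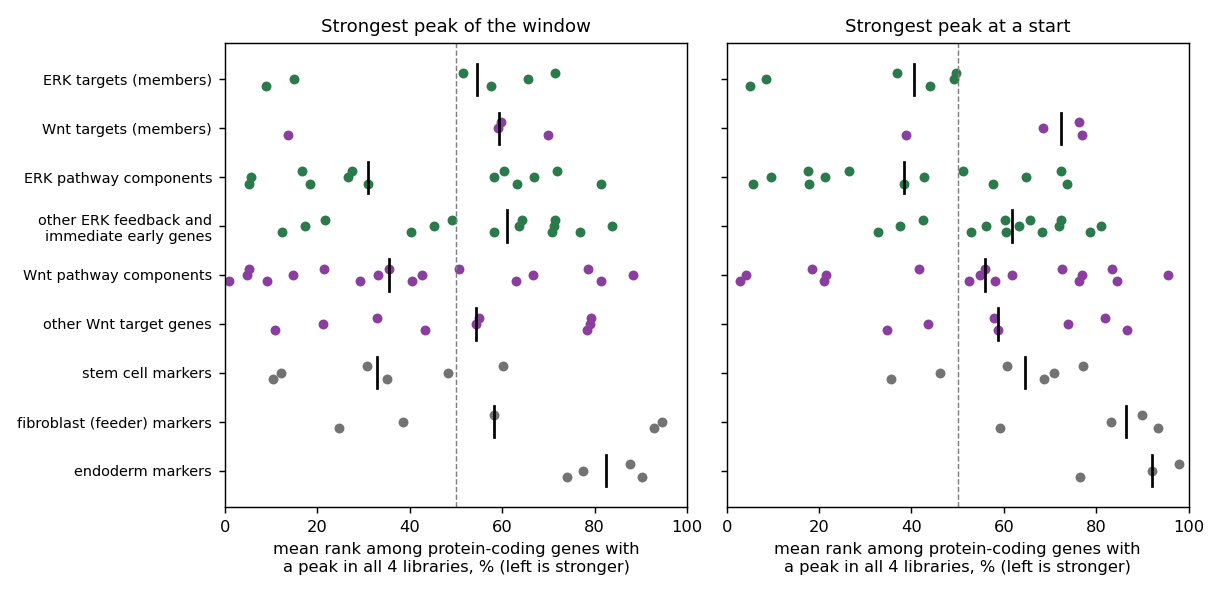
Mean rank over the 4 libraries of each gene's strongest window peak (left) and strongest peak at a start (right), in percent of the protein-coding genes that have such a peak in every library; black bars are list medians and the dashed line is 50%. At the starts the ERK targets have a median of 40.4% and the Wnt targets of 72.3%, and 2 of the 9 other Wnt targets and some marker genes have no such peak in every library and are not drawn there.

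A strong peak at a start in all 4 libraries was found for 11 of 13 ERK components, 11 of 14 other ERK targets, 11 of 17 Wnt components and 5 of 9 other Wnt targets. Among the genes outside the 10, the ERK lists thus also had larger shares than the Wnt lists (84.6% and 78.6% against 64.7% and 55.6%), and all 4 shares exceeded the 47.9% of protein-coding genes. The rank of the start peak gave no clear order in the target lists. Its median was 61.8% of the gene ranking for the 14 other ERK targets and 58.7% for 7 of the 9 other Wnt targets. Nkd1 and Notum had no start peak in every library and were left out of that median. If they are counted as the weakest, the median Wnt gene is Ccnd1 (73.8%), so that the order depends on them. The differences between the lists were not tested.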

How the data were processed

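The 4 ATAC-seq libraries of mES cells were grouped by the genotype label, 2 as wt and 2 as Hox-/-. The authors deposited 1 list of peaks per library, with replicates not pooled. Per the submitters' processing notes, the tools included cutadapt 4.8, Bowtie2 2.5.0, Picard 2.18.2, bedtools 2.30.0, MACS2 2.2.9.1 and deepTools 3.5.4, with build mm10, for which the notes used here give no settings. Handling of duplicates and any shift of reads for the transposase are not given in the sources used here. Each deposited line has a fold (a ratio over local background), a −log10 p, a −log10 q and a summit offset in bp, all the authors' peak caller's own. The deposited score column was not used. The lowest deposited −log10 q was 1.30 in every library, and lines that share an interval were each counted as a peak.

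Gene positions came from a RefSeq table (GRCm38.p6), which gives no strand. Starts were taken from RefSeq promoter windows, which covered 79.9% of 21887 protein-coding genes, 52 of the 78 listed genes and 7 of the 10 members. Other genes were given both ends. A window is the gene body with 20 kb on either side, and overlap means at least 1 bp. The relative depth is the 0.1% quantile of the background implied by each line's fold and p under a Poisson model, and no reads were counted. Scripts used Python 3.11.15 with pandas 2.3.3, numpy 2.4.6 and scipy 1.17.1, and were tested on simulated data.

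The members and gene lists were chosen with earlier results of these data known. Named were all members, the best region of each and its best start region, regions of 1 genotype only, the 3 largest rank ratios in each direction among regions without overlap, and the 2 strongest and 2 weakest genes of each pathway list. Genotypes were compared by exact permutation over libraries. Replicate numbers did not pair the libraries: between-replicate differences of the genotypes correlated at 0.004 over 122787 regions. Alternatives changed the window, the measure of strength, the number of strong peaks, merging, the q minimum, the start window, the overlap and the libraries used.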

Additional observations from a re-analysis of the deposited data

How the results depend on the processing

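Of 107 values under alternative settings for 10 results, 7 reversed, 29 moved and 71 did neither. A difference between the ERK and Wnt targets counts as moved beyond 1 SD over libraries and a number of regions beyond 1.5 times. A tested difference between the genotypes had only to keep its direction. Its p could not pass 0.05 under any setting. The difference in peaks at the ERK targets, for one, ran from -17 to -4. The settings named as such below, 3 in all, were chosen after the data were seen. The ERK minus Wnt difference of the strongest window peak was -4.14 points with 50 kb on either side and 9.5 when ranked by fold, and with the Lef1 upstream region left out (chosen after the data were seen) it was -0.915. At the starts the difference was -20.6 with 250 bp around the start, -9.23 by fold, and, chosen after the data were seen, -20.4 with members of known start only and -26.5 with both ends of every gene. For peaks per 10 kb it was 1.01 with 10 kb on either side, 0.105 with overlapping lines merged, 0.375 without peaks at starts of other genes and 0.109 without Lef1. For strong peaks per 10 kb it was 0.642 with 10 kb on either side, -0.0538 by fold, 0.132 with the 25000 strongest and 0.152 with the 100000 strongest. The Hox-/- minus wt difference in strong peaks at the members was -2 with 50 kb, -2.5 by fold, with the 25000 strongest and with merged lines, and -7.5 with the 100000 strongest. Without 1 library at a time it ran from 0 to 1. With 50 kb on either side, more regions entered: 36 ranked higher, 48 lower and 9 were listed in 1 genotype only. The last number was 3 with 10 kb and 10 with a −log10 q of at least 5. Leaving out 1 library makes it easier by construction for genotypes not to overlap, and gave 34 to 45 regions higher, 45 to 56 lower and 13 to 19 in 1 genotype only. With the replicate block, the differences in peaks were -8.5 and -10.5 (exact sign-flip p = 0.5) and in strong peaks 0.5 (exact sign-flip p = 1). The sign-flip test cannot give a p below 0.5 here, so that no call could change. Where no cause is given, the cause was not tested. No read counts were at hand, so the depth needed to list a weak region is not known.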
